A study of Danio rerio with 7 samples.

Results

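Proteoglycans and non-collagen glycoproteins make up, together with the collagens, the extracellular matrix that cells secrete and attach to. The genes described here were chosen by name, from a pattern that covers small leucine-rich proteoglycans, hyaluronan-binding proteoglycans, elastic fibre and microfibril proteins, adhesive glycoproteins, thrombospondins and tenascin, the SPARC family, CCN proteins, the Fraser complex and matrilins. In the gene name table, 108 zebrafish identifiers matched the pattern. Of these, 55 were among the 17570 genes analysed, and the other 53 were not analysed here, among them the biglycan, link protein, vitronectin and tgfbi genes. The 55 genes carry 48 distinct symbols, 7 of which are held by more than 1 identifier, and the last 5 digits of the Ensembl identifier are given for these.

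The data are RNA sequencing of PAC2, a permanent cell line derived from zebrafish embryos, wild type and untreated, grown in L-15 medium with fetal calf serum. Day 14 after seeding (stationary phase of the cell population, SP) was compared with day 8 (exponential phase, PP), with 3 libraries on day 14 (replicates 1, 2 and 4) and 4 libraries on day 8 (replicates 1 to 4). Replicates were separate cultures of different passage, begun on different days, and the day 14 library of replicate 3 was not analysed here. Both days come from 1 cell line and the medium was renewed the day before the day 8 harvest, so growth phase and time since the medium change cannot be told apart.

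Small leucine-rich proteoglycans such as lumican and osteoglycin bind collagen fibrils and control their width and spacing, while large proteoglycans such as aggrecan hold water through their chondroitin sulphate chains and bind hyaluronan. Fibrillins, fibulins, emilins and microfibril-associated proteins build the microfibrils and elastic fibres that give tissue recoil. Matricellular proteins (SPARC, thrombospondins, tenascin, periostin and the CCN proteins) carry little load themselves and modulate how cells contact the matrix and receive growth factors. Fibroblasts are the main source of many of these proteins.

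Libraries held between 11252559 and 33414743 estimated counts in the genes analysed. Levels are given as CPM, counts scaled to a common library size, after scaling by trimmed mean of M-values (TMM), whose factors lay between 0.883 and 1.15. CPM are not corrected for transcript length, so levels are compared between days and not between genes. Values of single libraries are listed for replicates 1, 2 and 4 on day 14 and for replicates 1 to 4 on day 8. A gene was called a differentially expressed gene (DEG) at a Benjamini-Hochberg adjusted p under 0.05 over all 17570 genes in edgeR's quasi-likelihood test. Cell type markers were found by exact symbol, and 85.8% of the genes analysed had a symbol. A marker not found may therefore be present under another symbol or without one. The study lists *col1a1b*, a fibroblast marker not found here, as expressed on the transcript and protein level. Of the fibroblast markers, 8 of 12 were found among the genes analysed, with a summed level of 4580 to 6287 CPM on day 14 and 2590 to 4692 CPM on day 8. Of these 8, *col1a2*, *pdgfra*, *twist1a* and *vim* were called higher on day 14, against 12% of all genes (*vim* remained under 1 CPM). *vim* had 0.63, 0.874 and 0.692 CPM on day 14, against 0.232, 0.259, 0.326 and 0.213 CPM on day 8. The authors' filter on low expression could hardly have kept *vim* without day 14. The other 4 fibroblast markers were not called, with log2 differences of -0.26 (*twist1b*) to 0.44 (*col1a1a*). Of the epithelial markers, 7 of 12 were analysed, with a summed level of 4726 to 5366 CPM on day 14 and 4106 to 5275 CPM on day 8, mostly from the keratin genes *krt8* and *krt18a.1*. Of these 7, *cdh1* and *krt4* were called lower, against 13.3% of all genes. The other 5 were not called, with log2 differences of -0.03 (*cldna*) to 0.74 (*krt5*). For *krt8* (0.15), every day 14 library lay above every day 8 library. The labels give no cell type beyond an embryonic origin, and markers of both kinds were present. Of the 10 chondrocyte and 7 osteoblast markers, 1 each was analysed (*col9a1b* and *runx2b*), neither of them called, and of the 5 leucocyte and 3 pigment cell markers none was. Of 7 muscle markers, 3 symbols (4 genes) were analysed and none was called (2647 to 3204 CPM in sum on day 14 and 2198 to 3466 CPM on day 8, mostly from 2 *tagln* genes). Of 5 endothelial markers 2 were analysed, with *kdrl* lower, and of 4 neural markers 1, not called. In bulk RNA, more cells of a type and more RNA per cell cannot be told apart, and the part of the fibroblast and epithelial markers in the results below was not tested.

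Of the 55 matrix genes, 23 were DEGs (41.8%), against 25.3% of all genes tested. On day 14, 18 were higher (32.7%, against 12% of all genes) and 5 were lower (9.09%, against 13.3% of all genes). The remaining 32 were not called, with log2 differences of -1.22 to 0.87 and adjusted p of 0.0567 to 0.988. Across the 55 genes the median log2 difference, day 14 minus day 8, was 0.32, against 0.003 over all genes tested. The 3 day 14 libraries lay above the 4 day 8 libraries in 22 of the 55 genes (40%, against 17.1% of all genes) and below them in 5 (9.09%, against 17.7%). The split depended on the scaling. Without scaling factors the median of all genes was -0.17, a shift of -0.175, and 11 matrix genes were called higher (6.93% of all genes) and 6 lower (18.5% of all genes). The 7 that were then no longer called were *aspn*, *fmod*, *emilin1b*, *fbln7*, *ccn5*, *frem1b* and *tnc* (78362), with adjusted p of 0.0524 to 0.222. With the replicate number as a block, all 23 were again DEGs and 26 were called in all (47.3%, against 36.6% of all genes), of which 8 were lower (18.9% of all genes), with *efemp2* (94324), *ltbp1* and *spock3* in addition. Day 8 replicate 3, which has no day 14 partner, does not bear on the day difference in the block fit. Without day 14 replicate 2, and likewise without day 14 replicate 4, 14 were called (25.5%, 12 higher and 2 lower), against 15.5% and 15.1% of all genes in these fits. Without day 8 replicate 2, 18 were called (32.7%, against 17.9% of all genes), of which 3 were lower (9.75% of all genes).

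**Figure D1:**
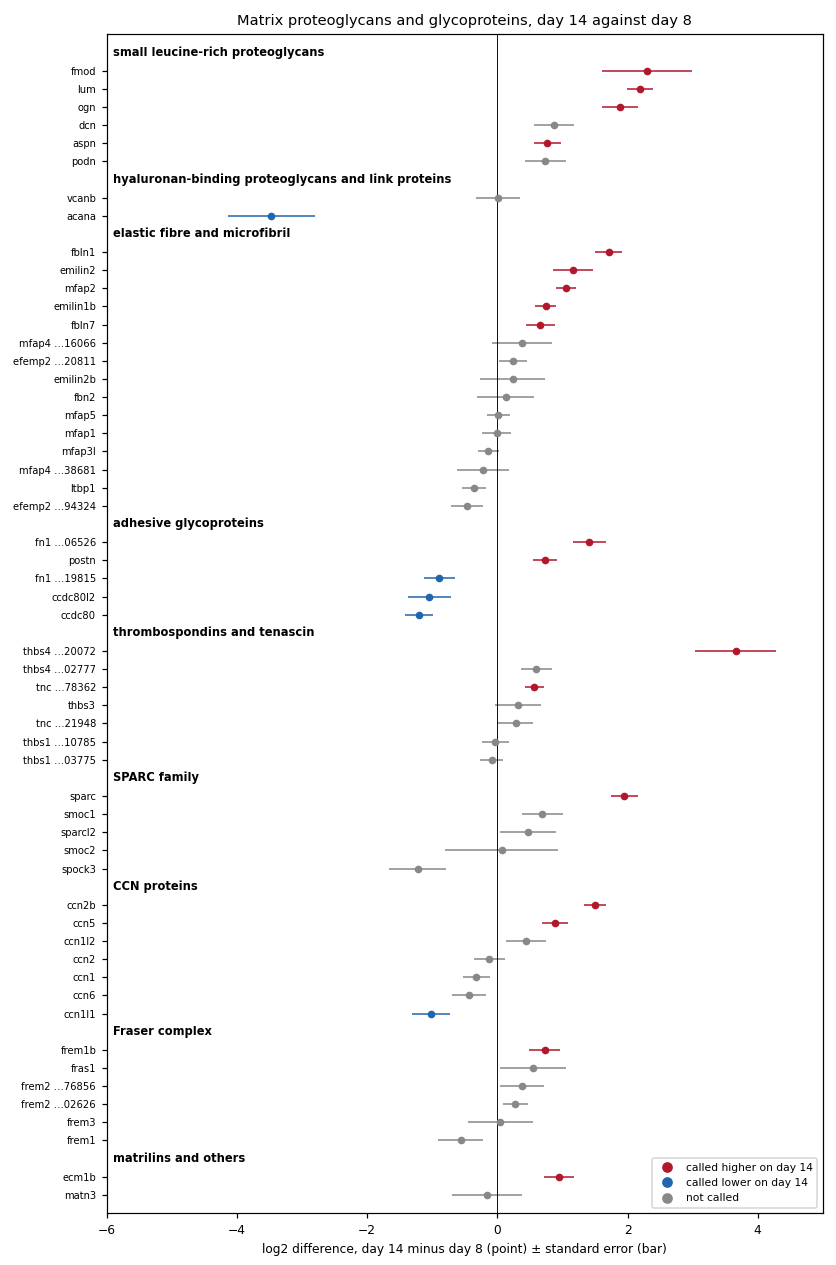
Log2 difference of day 14 minus day 8 (horizontal axis) for the 55 matrix genes, grouped by role, with the standard error as a bar. Red points are the 18 genes called higher on day 14, blue points the 5 called lower and grey points the 32 not called.

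Of the 6 small leucine-rich proteoglycans, 4 were DEGs and all 4 were higher on day 14 (66.7%, against 12% of all genes). In all 6 the day 14 libraries lay above every day 8 library, against 17.1% of all genes. Their median log2 difference was 1.38, against 0.003 over all genes. The counts of 4 and of 6 include *fmod*, which could hardly have been kept by the authors' filter without its day 14 counts. Its days were barely apart, at 0.524 CPM in day 14 replicate 2 and 0.464 CPM in day 8 replicate 1. *lum* (ENSDARG00000045580), which encodes lumican, a keratan sulphate proteoglycan that spaces collagen fibrils, had 353, 485 and 367 CPM on day 14, against 87.4, 78.8, 68.4 and 116 CPM on day 8. The day 14 libraries stood well clear of day 8, and the log2 difference was 2.20 (SE 0.20, a 4.58-fold difference, adjusted p = 5.16e-05 in edgeR's quasi-likelihood test). *ogn*, which encodes osteoglycin (mimecan), measured 62, 102 and 61.7 CPM on day 14, against 25.1, 13.3, 27.7 and 15.6 CPM on day 8. Day 14 replicate 2 was the highest, and the log2 difference was 1.88 (SE 0.27, adjusted p = 0.000684). Both were called in every alternative fit. *aspn*, which encodes asporin, a binder of collagen and TGF-beta, had 30.8, 40.4 and 34.5 CPM on day 14, against 25.8, 14.1, 24.6 and 18.4 CPM on day 8, with a log2 difference of 0.77 (SE 0.21, adjusted p = 0.0169).

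Fibromodulin, another collagen-binding member of the family, was near the limit of detection. *fmod* had 51, 9 and 17 estimated counts on day 14 (replicates 1, 2 and 4), against 6, 7, 0 and 3 on day 8 (replicates 1 to 4), a log2 difference of 2.30 (SE 0.69, adjusted p = 0.0289). The authors had dropped genes of very low expression, and *fmod* could hardly have been kept without its day 14 counts. It was no longer called without day 14 replicate 1 (adjusted p = 0.146), day 14 replicate 4 (0.0732) or day 8 replicate 4 (0.0746). The *aspn* call was lost without day 14 replicate 2 (adjusted p = 0.088) or replicate 4 (0.0535). Decorin and podocan, both also ligands of collagen, had few counts and were not called. *dcn* had 1.98, 1.81 and 1.76 CPM on day 14, against 1.08, 1.07, 0.761 and 1.11 CPM on day 8 (log2 difference 0.87, adjusted p = 0.0567). It was called among genes of at least 1 CPM (adjusted p = 0.042) and with edgeR's newer quasi-likelihood form (0.0375). *podn* had 2.46, 2.21 and 2.61 CPM on day 14, against 0.773, 1.51, 1.79 and 1.66 CPM on day 8 (log2 difference 0.74, adjusted p = 0.107).

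Of the hyaluronan-binding proteoglycans covered by the name pattern only 2 genes were analysed, and they differed in outcome. *acana* encodes aggrecan, the large chondroitin sulphate proteoglycan of cartilage. It had 9, 0 and 5 estimated counts on day 14, against 22, 78, 16 and 76 on day 8, or 0.27, 0 and 0.266 CPM on day 14 and 1.7, 2.88, 0.87 and 3.24 CPM on day 8. Every day 8 library was above every day 14 library, and the log2 difference was -3.47 (SE 0.67, adjusted p = 0.00276), the largest fall of the 55 and called in every alternative. The level was low throughout, at a mean of 2.17 CPM on day 8. With so few counts on day 14, *acana* could pass the authors' filter on low expression only through day 8. *vcanb*, which encodes versican, a related proteoglycan of soft tissue, had 2.85, 2.27 and 2.13 CPM on day 14 and 3.63, 2.55, 1.25 and 2.3 CPM on day 8 (log2 difference 0.0088, adjusted p = 0.988), with overlapping libraries. Brevican, a relative of both, lies outside the pattern and is counted in a list below. Its gene *bcan* had 2.04, 1.57 and 1.97 CPM on day 14, against 1.08, 0.443, 0 and 0.81 CPM on day 8. The *bcan* libraries did not overlap, and it was not called (log2 difference 1.71, adjusted p = 0.0765 in edgeR's quasi-likelihood test).

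Among the 15 elastic fibre and microfibril genes, 5 were higher on day 14 (33.3%, against 12% of all genes), none was lower (13.3% of all genes) and 10 were not called. Their median log2 difference was 0.23. *fbln1* encodes fibulin-1, which binds fibronectin, elastic fibres and basement membrane. It had 75.6, 106 and 106 CPM on day 14, against 29, 26.7, 21.3 and 40.1 CPM on day 8, and its log2 difference was 1.71 (SE 0.21, 3.27-fold, adjusted p = 0.000242 in edgeR's quasi-likelihood test). *mfap2*, for a glycoprotein of fibrillin microfibrils (MAGP-1 in mammals), had 149, 198 and 144 CPM on day 14, against 86.7, 74.8, 76.5 and 76.5 CPM on day 8. The day 8 values were close together and the day 14 values all higher, with a log2 difference of 1.06 (SE 0.15, adjusted p = 0.000624). Both genes were called in every alternative.

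The emilins, glycoproteins of elastic fibres and the cell surface, were split between called and uncalled copies. *emilin1b* had 85.1, 85.7 and 93.9 CPM on day 14, against 66.9, 52.3, 41.9 and 50.1 CPM on day 8 (log2 difference 0.74, SE 0.17, adjusted p = 0.00654). *emilin2* had 3.03, 4.55 and 5.43 CPM on day 14, against 1.16, 1.85, 1.96 and 2.64 CPM on day 8 (log2 difference 1.16, SE 0.31, adjusted p = 0.0155). The *emilin2* libraries did not overlap, but the call was lost without day 14 replicate 2 (adjusted p = 0.0577) or replicate 4 (0.0873). *fbln7*, for fibulin-7, a short fibulin, had 30.2, 32.1 and 36.4 CPM on day 14, against 22.7, 23.3, 12.1 and 25.1 CPM on day 8 (log2 difference 0.66, adjusted p = 0.0442). This was a marginal call, lost without robust estimation (adjusted p = 0.0504) and without day 14 replicate 1 (0.0647), replicate 2 (0.111) or replicate 4 (0.159) or day 8 replicate 2 (0.0612).

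Fibrillin-2 and the other 9 uncalled genes of this group had log2 differences of -0.46 to 0.38 (adjusted p from 0.19 to 0.98). The one with the most counts was *efemp2* (ENSDARG00000094324), which encodes fibulin-4, needed in mammals to bring lysyl oxidase to elastic fibres. It had 1715, 1443 and 1004 CPM on day 14, against 2349.6, 2211, 1386 and 1700.1 CPM on day 8, a log2 difference of -0.46 (SE 0.25, adjusted p = 0.196). Day 8 replicates 3 and 4 lay among the day 14 libraries and day 14 replicate 4 was the lowest of all. With the replicate number as a block the log2 difference was -0.61 and the gene was called (adjusted p = 0.00207). *ltbp1* stores latent TGF-beta on microfibrils and had 26.1, 19.8 and 23.7 CPM on day 14, against 36.6, 32.7, 21.9 and 28.3 CPM on day 8 (log2 difference -0.36, adjusted p = 0.19, and 0.00996 with the block). *mfap5*, a second microfibril glycoprotein, had 27.2, 33.9 and 26.9 CPM on day 14 and 25.2, 24.7, 29 and 37.1 CPM on day 8, a log2 difference of 0.02 (adjusted p = 0.963). The other uncalled genes were *fbn2*, *emilin2b*, *efemp2* (20811), 2 copies of *mfap4*, *mfap1* and *mfap3l*. The last 2 were included by name, and *mfap1* encodes a splicing factor in other species. The *mfap4* copies belong to a family of similar genes, so how reads were shared among them is uncertain.

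**Figure D2:**
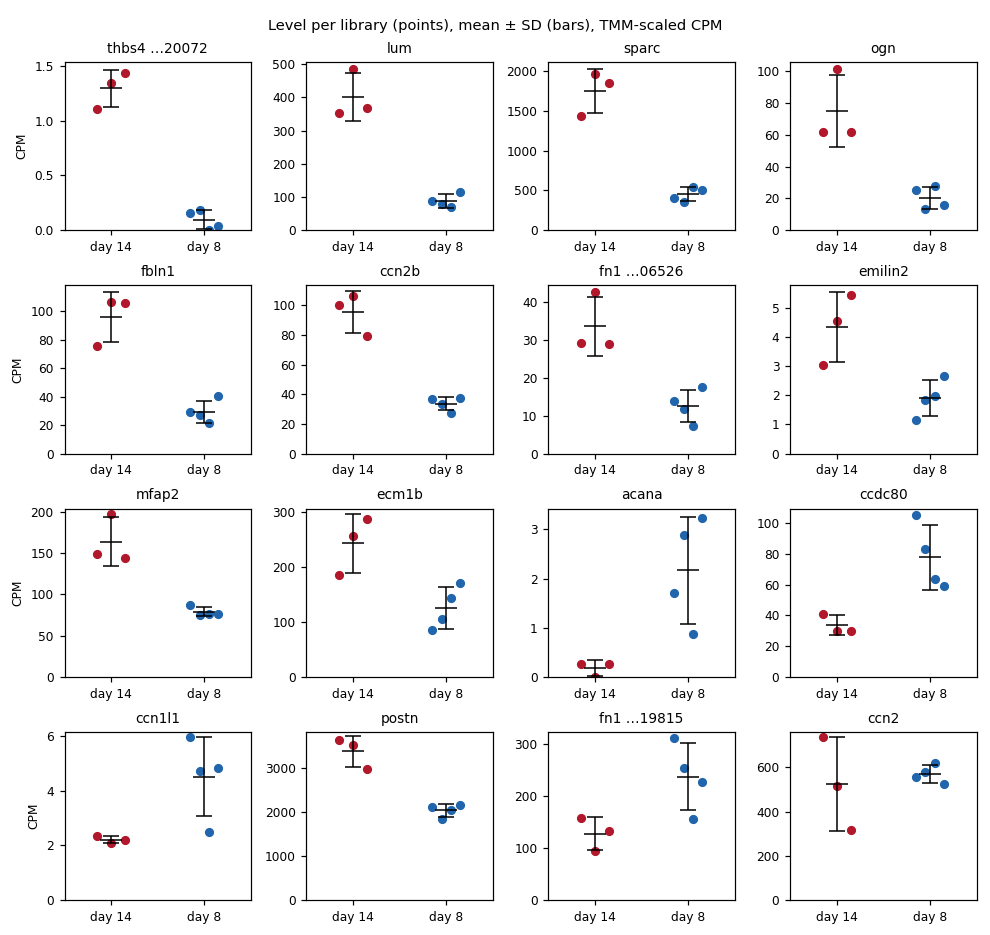
TMM-scaled CPM (vertical axis, starting at 0, a separate scale for each gene) in each library for 16 matrix genes, with day 14 on the left in red and day 8 on the right in blue. Bars give the mean and SD (n = 3 on day 14 and 4 on day 8). They include the 10 largest rises among genes chosen for a mean of at least 1 CPM on either day and no overlap between days, which leaves out *fmod*, and *fn1* (19815) and *ccn2* show overlapping libraries.

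Adhesive glycoproteins moved in both directions, and all 5 were DEGs, against 25.3% of all genes. On day 14, 2 of them were higher (12% of all genes) and 3 lower (13.3% of all genes). *postn* encodes periostin, a matricellular protein that promotes collagen crosslinking, and it had the most counts of the 55 genes. Its level was 3641, 3529.8 and 2985 CPM on day 14, against 2125, 1843, 2047 and 2158 CPM on day 8, without overlap (log2 difference 0.73, SE 0.19, 1.66-fold, adjusted p = 0.0139 in edgeR's quasi-likelihood test). The call was lost without day 14 replicate 1 (adjusted p = 0.0522), day 14 replicate 2 (0.0603) or day 8 replicate 2 (0.0624), while the log2 difference stayed at 0.67 to 0.70 in these 3 fits.

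Fibronectin, the glycoprotein through which integrins first attach cells to matrix, had 2 copies among the genes analysed, and they differed in opposite directions. *fn1* (ENSDARG00000006526) had 29.1, 42.7 and 28.9 CPM on day 14, against 13.8, 11.8, 7.23 and 17.4 CPM on day 8, and was higher on day 14 with a log2 difference of 1.42 (SE 0.25, adjusted p = 0.00194). All 3 day 14 libraries were above all 4 day 8 libraries. *fn1* (ENSDARG00000019815) had 158, 93.8 and 132 CPM on day 14, against 312, 253, 157 and 228 CPM on day 8, and was lower on day 14 with a log2 difference of -0.89 (SE 0.24, adjusted p = 0.0164). Day 14 replicate 1 and day 8 replicate 3 were about level here, and the call was lost without day 14 replicate 2 (adjusted p = 0.0951) or replicate 4 (0.0617).

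*ccdc80* encodes a secreted protein that binds matrix and promotes cell adhesion. It had 41.2, 30.1 and 30.1 CPM on day 14, against 106, 83.1, 64 and 58.9 CPM on day 8, a log2 difference of -1.20 (SE 0.22, adjusted p = 0.00205), and was called in every alternative. Every day 14 library was below every day 8 library. *ccdc80l2*, a related gene, had 2.37, 1.63 and 1.06 CPM on day 14, against 4.79, 3.21, 3.91 and 2.35 CPM on day 8, and day 14 replicate 1 and day 8 replicate 4 were nearly equal. Its log2 difference was -1.04 (SE 0.34, adjusted p = 0.0385). The call was lost without day 14 replicate 2 (adjusted p = 0.116), day 14 replicate 4 (0.155) or day 8 replicate 1 (0.0755), 2 (0.0625) or 3 (0.0624).

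Of the 7 thrombospondin and tenascin genes, 2 were higher on day 14 and 5 were not called, with a median log2 difference of 0.32. The share called, 28.6%, was near the 25.3% of all genes. The largest rise of the 55 genes was in *thbs4* (ENSDARG00000020072), for thrombospondin-4, a pentameric matrix protein of tendon and muscle attachments. It had 37, 23 and 27 estimated counts on day 14, against 2, 5, 0 and 1 on day 8, or 1.11, 1.34 and 1.44 CPM on day 14 and 0.154, 0.185, 0 and 0.0426 CPM on day 8. The libraries were far apart at a low level, and the log2 difference was 3.66 (SE 0.62, adjusted p = 0.00141 in edgeR's quasi-likelihood test). Given its day 8 counts, this copy could pass the authors' filter on low expression only through day 14. The other copy, *thbs4* (ENSDARG00000102777), had 4.23, 4.43 and 3.25 CPM on day 14, against 2.78, 2.66, 2.99 and 2.09 CPM on day 8. Its libraries did not overlap, and it was not called (log2 difference 0.60, adjusted p = 0.0867).

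Thrombospondin-1, which activates latent TGF-beta and inhibits vessel growth, was not called. *thbs1* (ENSDARG00000010785) had 1679, 1497 and 1326 CPM on day 14 and 1834, 1697, 1209.7 and 1383 CPM on day 8 (log2 difference -0.03, SE 0.20, adjusted p = 0.937). *thbs1* (ENSDARG00000103775) had 484, 452 and 416 CPM on day 14 and 579, 521, 399.8 and 416 CPM on day 8 (log2 difference -0.09, SE 0.18, adjusted p = 0.76). In both copies day 8 replicate 1 was the highest of the 7 libraries and day 8 replicate 3 the lowest. Tenascin-C, an anti-adhesive protein of remodelling tissue, was called in 1 of its 2 copies. *tnc* (ENSDARG00000078362) had 30.9, 32.9 and 31.2 CPM on day 14, against 24.5, 19.1, 20.9 and 21.4 CPM on day 8 (log2 difference 0.57, adjusted p = 0.0135), a call lost without day 14 replicate 2 (0.059) or day 8 replicate 2 (0.0571). *tnc* (ENSDARG00000021948) had 46.5, 45.3 and 36.6 CPM on day 14 and 48.4, 43.9, 18.7 and 30.1 CPM on day 8 (log2 difference 0.28, adjusted p = 0.485), with day 8 replicate 3 far below the others. *thbs3* was not called (log2 difference 0.32, adjusted p = 0.544).

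*sparc* (ENSDARG00000019353) encodes osteonectin, a collagen-binding glycoprotein that in mammals is needed for normal collagen fibril assembly. It had 1429, 1963 and 1851 CPM on day 14, against 400.1, 359, 545 and 507 CPM on day 8. The lowest day 14 library was far above the highest day 8 library, with a log2 difference of 1.95 (SE 0.21, 3.86-fold, adjusted p = 0.00012 in edgeR's quasi-likelihood test), called in every alternative. Its share of all counts was 0.143% to 0.173% on day 14 and 0.0396% to 0.0527% on day 8. The other 4 genes of the family were at low levels and not called, which left 20% of the family called, against 25.3% of all genes. *spock3*, for a testican, a heparan sulphate proteoglycan, had 0.45, 0.233 and 0.479 CPM on day 14, against 1, 0.887, 0.707 and 1.11 CPM on day 8, without overlap (log2 difference -1.22, adjusted p = 0.0588). With 15, 4 and 9 estimated counts on day 14, it could hardly have passed the authors' filter on low expression without day 8. It was called with the replicate block (adjusted p = 0.0439), without scaling factors (0.0428), with edgeR's newer quasi-likelihood form (0.0497) and without day 8 replicate 3 (0.048). *smoc1*, for a modulator of BMP signalling, had a log2 difference of 0.69 (adjusted p = 0.131), *sparcl2* one of 0.47 (adjusted p = 0.462) and *smoc2* one of 0.07 (adjusted p = 0.965).

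CCN proteins are secreted regulators of adhesion, proliferation and matrix production. Of 7 genes, 2 were higher on day 14 (28.6%, against 12% of all genes), 1 was lower (14.3%, against 13.3%) and 4 were not called. The median log2 difference was -0.12. *ccn2b*, a connective tissue growth factor gene, had 100.4, 106 and 79.3 CPM on day 14, against 36.8, 33.4, 27.2 and 37.1 CPM on day 8. The days were clearly apart, with a log2 difference of 1.50 (SE 0.16, adjusted p = 0.000133 in edgeR's quasi-likelihood test), called in every alternative. *ccn5*, for a CCN protein that lacks the C-terminal domain of the others, had 43.8, 35.8 and 29.2 CPM on day 14, against 21, 23.1, 14.1 and 20.4 CPM on day 8 (log2 difference 0.89, SE 0.19, adjusted p = 0.00584). The lower one was *ccn1l1*, related by name to *ccn1*, with 2.34, 2.1 and 2.18 CPM on day 14, against 5.95, 4.73, 2.5 and 4.82 CPM on day 8 (log2 difference -1.02, SE 0.29, adjusted p = 0.0229). Day 8 replicate 3 was only just above the day 14 libraries. The call was lost without any 1 of the 3 day 14 libraries (replicate 1, adjusted p = 0.0536, replicate 2, 0.0825, replicate 4, 0.0814), and without day 8 replicate 2 (0.0561) or replicate 4 (0.0533).

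The 2 CCN genes with the most counts, both known as targets of Yap and Taz, were not called. *ccn1*, formerly Cyr61, had 696, 479.9 and 412 CPM on day 14 and 676, 751, 668 and 559 CPM on day 8 (log2 difference -0.33, SE 0.21, adjusted p = 0.276). *ccn2* had 739.7, 516 and 315 CPM on day 14 and 555, 578, 621 and 525 CPM on day 8 (log2 difference -0.12, SE 0.24, adjusted p = 0.755). The day 14 libraries of *ccn2* spread more widely than the day 8 libraries and enclosed them, with replicate 1 at the top and replicate 4 at the bottom. *ccn1l2* and *ccn6* had log2 differences of 0.44 and -0.43 and were not called (adjusted p = 0.315 and 0.255).

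Fras1 and the Frem proteins form a complex in the basement membrane that anchors epidermis to dermis. Of 6 genes, 16.7% were called, against 25.3% of all genes. Only *frem1b* was higher on day 14, with 19.7, 17.1 and 19.5 CPM on day 14, against 15.6, 13.3, 7.12 and 9.59 CPM on day 8 (log2 difference 0.72, SE 0.23, adjusted p = 0.0375 in edgeR's quasi-likelihood test). This call was lost without day 14 replicate 1 (adjusted p = 0.0956), 2 (0.0806) or 4 (0.119) or day 8 replicate 4 (0.0942). The other 5 (*fras1*, *frem1*, *frem3* and 2 copies of *frem2*) had log2 differences of -0.57 to 0.55 and were not called. The copy of *frem2* with more counts (ENSDARG00000102626) had 70.9, 57.5 and 76.9 CPM on day 14 and 74.4, 52.6, 41.4 and 58.2 CPM on day 8, with overlapping libraries. Outside these families, *ecm1b*, for extracellular matrix protein 1, had 185, 256 and 288 CPM on day 14, against 84.6, 105, 143 and 171 CPM on day 8. All day 14 libraries were above day 8, with a log2 difference of 0.95 (SE 0.23, adjusted p = 0.0108), and the call was lost without day 14 replicate 4 (adjusted p = 0.0605). *matn3*, for matrilin-3, a cartilage filament protein, was at a low level and not called (log2 difference -0.15, adjusted p = 0.866).

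**Figure D3:**
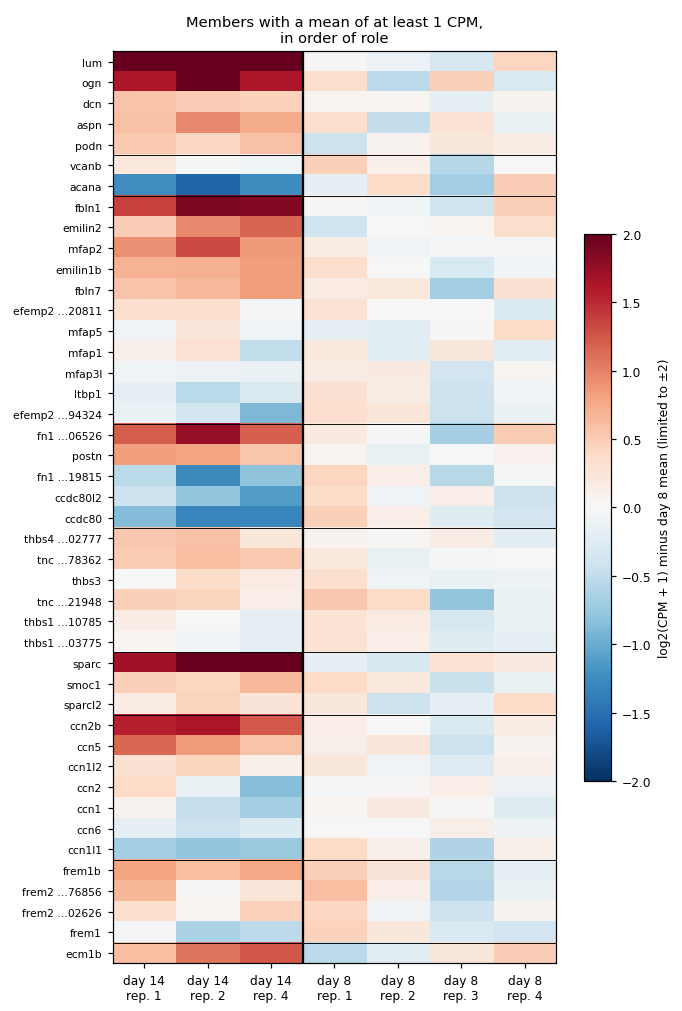
Log2(CPM + 1) of the 44 matrix genes with a mean of at least 1 CPM, minus the mean of the 4 day 8 libraries, in each library (columns, day 14 left of the black line, day 8 right of it). Rows are ordered by role, red is above and blue below the day 8 mean, and colours are limited to 2 either side. Within day 8, replicate 3 is mostly blue and replicate 1 mostly red.

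Libraries of the same day differed in a way that ran through many of these genes. Among the 44 matrix genes with a mean of at least 1 CPM, day 8 replicate 3 was the lowest day 8 library in 24 (54.5%), against 32.5% of 15718 genes at that level, and day 8 replicate 1 was the highest in 22 (50%), against 30.9%. Day 14 replicate 1 was the day 14 library nearest the day 8 mean in 25 of the 44 (56.8%), against 45.1% of genes. Summed over the 55 genes, the level was 12044, 11796 and 10040 CPM on day 14 (replicates 1, 2 and 4), against 9767, 9030, 7777 and 8393 CPM on day 8 (replicates 1 to 4). The days did not overlap in this scaled sum, but they did in the unscaled share of all counts, which was 1.2%, 1.04% and 0.924% on day 14, against 1.12%, 0.995%, 0.726% and 0.873% on day 8. The 6 genes with the most counts (*postn*, *efemp2* (94324), *thbs1* (10785), *sparc*, *ccn1* and *ccn2*) held 78.6% to 83.3% of the counts of the 55 in each library, and of these 6 only *postn* and *sparc* were DEGs.

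Genes in 2 copies, of the same symbol or of symbols that differ only in a final a or b, offer a comparison within each library, since both copies share its depth. There were 10 such pairs among the matrix genes, of which 7 had a mean of at least 1 CPM in both copies. The within-library log2 ratio of (CPM + 1) of the copies was compared between days with limma over 1463 pairs of the same kind, 34.2% of which differed, and 4 of the 7 matrix pairs did. Of 435 pairs whose symbols end in a and b, 38.9% differed, but none lies within the matrix genes. The wider pairing rule was therefore chosen after the gene names had been seen, and how far reads were shared between the copies was not assessed. For fibronectin, the log2 ratio of copy 06526 over copy 19815 was -2.40, -1.12 and -2.15 on day 14, against -4.41, -4.31, -4.26 and -3.63 on day 8 (difference 2.26, SE 0.27, adjusted p = 5.00e-05 in limma). Copy 06526 held 15.6% to 31.3% of the summed CPM of both on day 14 and 4.22% to 7.12% on day 8. Such shares are not corrected for transcript length, so they are compared only between days. For *ccn2* over *ccn2b* the log2 ratio was 2.87, 2.27 and 1.98 on day 14, against 3.88, 4.07, 4.46 and 3.79 on day 8 (difference -1.68, SE 0.21, adjusted p = 5.58e-05). Here *ccn2b* held 11.9% to 20.1% of the summed CPM of both on day 14 and 4.2% to 6.61% on day 8.

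The remaining copy differences were smaller. For *frem1* over *frem1b* the log2 ratio was -2.48, -2.88 and -2.95 on day 14, against -1.66, -1.68, -1.41 and -1.86 on day 8 (difference -1.12, SE 0.21, adjusted p = 0.00117 in limma). For *efemp2* copy 20811 over copy 94324 it was -7.68, -7.42 and -7.28 on day 14, against -8.17, -8.39, -7.69 and -8.28 on day 8 (difference 0.67, SE 0.18, adjusted p = 0.00932), and the day 14 replicate 1 ratio was only just above that of day 8 replicate 3. Neither copy of *efemp2* was a DEG without the block. The *thbs1* copies had a log2 ratio of 1.67 to 1.79 on day 14 and 1.59 to 1.73 on day 8 (difference 0.06, SE 0.11, adjusted p = 0.699). No difference was called for *frem2* (difference 0.02, SE 0.20, adjusted p = 0.946) or for *tnc* copy 21948 over copy 78362 (difference -0.19, SE 0.26, adjusted p = 0.589), although the *tnc* pair was called with the replicate block (adjusted p = 0.0374).

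**Figure D4:**
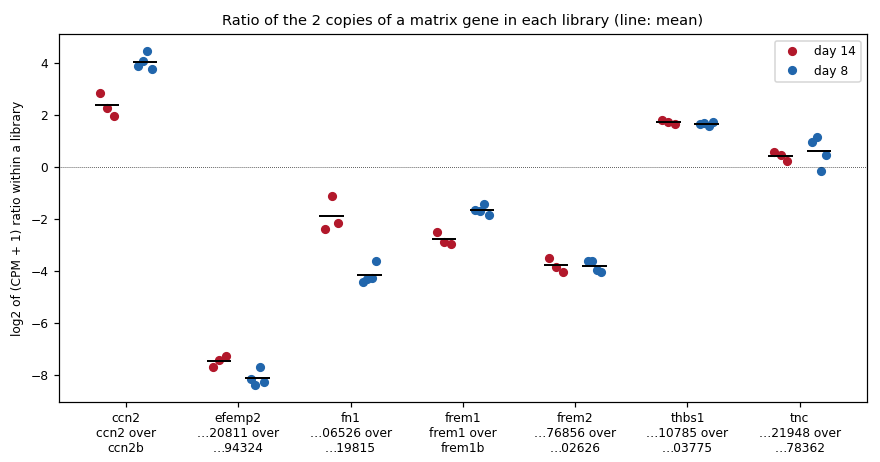
Log2 ratio of (CPM + 1) of the 2 copies of a gene within each library (vertical axis) for the 7 pairs tested, day 14 in red on the left and day 8 in blue on the right of each pair, with the mean as a line. The fibronectin and *ccn2* pairs lie apart between days, and the *thbs1* and *frem2* pairs overlap.

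Proteoglycans depend on enzymes that build and sulphate their glycosaminoglycan chains. Of 41 such genes analysed, 14 were higher on day 14 and 2 were lower, with a median log2 difference of 0.37, against 0.003 over all genes (12% of all genes were called higher and 13.3% lower). Calls in this and the related lists below come from the fit with all libraries and TMM scaling. They are not given under the alternative fits. Some were marginal, such as *extl3* (adjusted p = 0.046 in edgeR's quasi-likelihood test) and *ust* (0.0449). *hs2st1* (62008), for the enzyme that sulphates uronic acid in heparan sulphate, had 21.9, 21.6 and 26.9 CPM on day 14, against 7.73, 8.2, 6.52 and 8.44 CPM on day 8 (log2 difference 1.60, adjusted p = 0.000107 in edgeR's quasi-likelihood test). The other *hs2st1* gene (99478) was not called (log2 difference 0.20, adjusted p = 0.41). *dse*, for the epimerase that turns chondroitin into dermatan sulphate, the chain carried by decorin, had 189, 189 and 177 CPM on day 14, against 108, 103, 83.3 and 90.9 CPM on day 8 (log2 difference 0.94, adjusted p = 0.000789). The epimerase *dsel*, the chondroitin N-acetylgalactosaminyltransferase gene *csgalnact2*, the xylosyltransferase gene *xylt2* that begins chains on the core protein, and the heparan sulphate genes *ext2*, *extl3* and *ndst1* (03606) were also higher, with log2 differences of 0.53 to 0.90. The other *ndst1* gene (62397) was not called (log2 difference 0.34, adjusted p = 0.233). Nor were *xylt1* (log2 difference -0.61, adjusted p = 0.0856), *ext1* (01019, -0.19, and 03155, -0.21) and *ext1c* (0.09). Lower were *csgalnact1*, a relative of *csgalnact2*, with 0.63, 0.233 and 0.319 CPM on day 14, against 1.7, 2.44, 1.3 and 1.36 CPM on day 8 (log2 difference -2.03, adjusted p = 0.00587), and *papss1*, which makes the sulphate donor, with 12.5, 11 and 9.36 CPM on day 14, against 23.3, 27.9, 20.9 and 24.5 CPM on day 8 (log2 difference -1.13, adjusted p = 0.000736). The second sulphate donor gene, *papss2* (56600), was higher (log2 difference 0.58, adjusted p = 0.00906). At its day 14 level, *csgalnact1* could hardly have passed the authors' filter on low expression without day 8.

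Of 20 cell surface, basement membrane and other proteoglycan genes and their partners, 6 were higher on day 14 (*gpc1*, *tgfbr3*, *gpc5c*, *nid1*, *sdc4* and *gpc5*) and *agrn* was lower, with a median log2 difference of 0.19. *gpc1* was at a low level, with 2.58, 2.74 and 4.95 CPM on day 14, against 1.24, 1.22, 0.815 and 1.41 CPM on day 8. The related gene *gpc1b* had 140, 126 and 134 CPM on day 14 and 142, 140, 101 and 120 CPM on day 8. It was not called (log2 difference 0.08, adjusted p = 0.733 in edgeR's quasi-likelihood test). The *gpc5c* libraries overlapped between days. Over all genes, 12% were called higher and 13.3% lower. The calls in the hyaluronan and lysyl oxidase lists below were few and close to these shares. *sdc4*, for syndecan-4, a fibronectin co-receptor at focal adhesions, had 691, 742 and 875 CPM on day 14, against 478, 454, 461 and 529 CPM on day 8 (log2 difference 0.68, adjusted p = 0.0101 in edgeR's quasi-likelihood test). *nid1*, for nidogen, which links laminin to collagen IV, had 2004, 2120.0 and 1772 CPM on day 14, against 1188, 1110.3, 785 and 904 CPM on day 8 (log2 difference 0.98, adjusted p = 0.00393). Of 11 hyaluronan genes, *stab2* and *cemip*, for a clearance receptor and a hyaluronan-degrading protein, were higher, and *hmmr* and *cd44a*, for 2 hyaluronan receptors, were lower. *stab2* was near the limit of detection, at 1.23, 1.46 and 0.904 CPM on day 14, against 0.309, 0.259, 0.0544 and 0.298 CPM on day 8. At that day 8 level, it could hardly have passed the authors' filter on low expression without day 14. *cd44a* was also low, at 1.33 to 2.4 CPM on day 14 and 2.63 to 4.68 CPM on day 8. *hmmr* also serves the mitotic spindle. Of 7 lysyl oxidase genes, whose enzymes crosslink collagen and elastin, *loxl3* (76306) was higher, with 51.3, 59.5 and 51 CPM on day 14, against 19.2, 16.3, 14.7 and 16.8 CPM on day 8 (log2 difference 1.69, adjusted p = 4.62e-05), and *loxl4* was lower (log2 difference -0.94, adjusted p = 0.00385). The other *loxl3* gene (39563) was at a low level and not called (log2 difference 0.83, adjusted p = 0.112). Of 12 genes of the Yap/Taz and Tead list, which does not hold the CCN genes, only *nuak2* was called, against 25.3% of all genes. It was higher on day 14 (log2 difference 1.07, adjusted p = 0.00325), and the median of the list was -0.07.

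**Figure D5:**
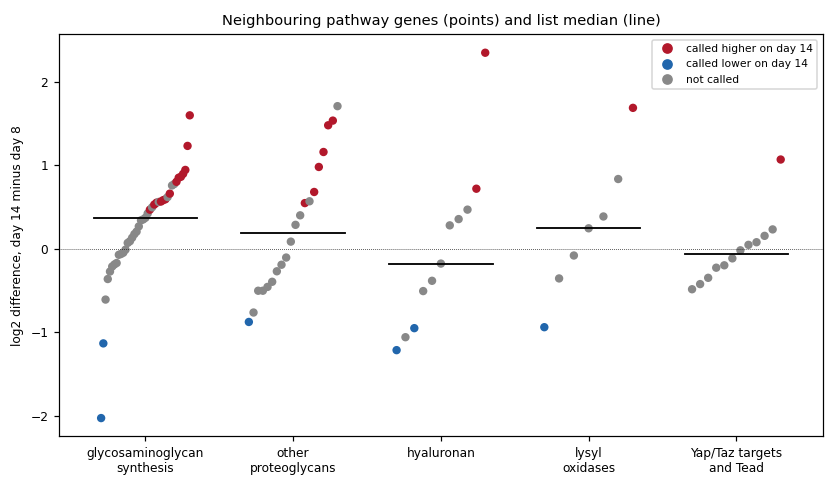
Log2 difference of day 14 minus day 8 (vertical axis) for each analysed gene of 5 related lists, sorted within the list, with the list median as a line. Red points were called higher on day 14, blue points lower, and grey points were not called. Glycosaminoglycan synthesis has 14 red and 2 blue points of 41.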

How the data were processed

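RNA of 7 libraries (3 of day 14 and 4 of day 8) was sequenced from poly(A)-selected, stranded libraries. Per the labels and the study's methods, the authors estimated transcript counts with kallisto against GRCz11, summed them to genes, dropped genes of very low expression with edgeR 4.6.2, and normalized them by transcript length and effective library size. The deposited matrix is titled normalized, but its values look like estimated counts before that step, with unequal library totals and 48% to 52.3% whole numbers, and were treated as such. The length normalization was not repeated, since no transcript lengths were used here.

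Estimated counts were rounded and all 17570 genes were fitted with edgeR 4.0.16 (R 4.3.3, TMM, glmQLFit with robust estimation, glmQLFTest), with day as the only term. Log2 differences are day 14 minus day 8, and each standard error is the log2 difference over the root of its F statistic. Copy ratios used log2(CPM + 1), a mean of at least 1 CPM and limma 3.58.1. Alternatives were no scaling, median-of-ratios scaling, a 1 CPM filter, DESeq2 1.42.0, no robust estimation, the newer quasi-likelihood form, the replicate block and leaving out each library, and for copy ratios a pseudocount of 0.25 CPM, no filter and a 5 CPM filter. The fits were tested on simulated data. Gene names came from a table that named 15073 genes (85.8%), and no sequences were read.

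Values in every library are given for *lum* and *sparc*, for up to 10 rises and 10 falls of largest log2 difference without overlap and of at least 1 CPM on either day, for the 6 genes with the most counts and for copies that differed. Other genes given in full were added as called members or for comparison. The members and lists were chosen with earlier results of these data known.

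Replicate numbers stand for cultures of different passage begun on different days, which pairs day 14 with day 8. Deviations from the day means correlated at 0.324 (replicate 1), -0.132 (replicate 2) and 0.407 (replicate 4), and at -0.357 to 0.371 between different numbers. No 2 libraries agreed within sampling noise (lowest chi-square per gene 14). Differences at low counts are limited by depth as well as by the number of libraries.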

Additional observations from a re-analysis of the deposited data

Results flagged for a closer look

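In 3 of the 55 matrix genes, 1 day 8 library stood apart from the other 3 by more than Dixon's limit for 4 samples, which chance exceeds in about 1 of 20 groups. The share found, 3 of 55, was near that of chance. *dcn* had its lowest day 8 value, 0.761 CPM, in replicate 3 (gap 0.893 of the range). *mfap2* had its highest, 86.7 CPM, in replicate 1 (0.854), and *thbs3* had its highest, 1.70 CPM, in replicate 1 (0.923). The *dcn* value rested on 14 estimated counts and the *thbs3* value on 22.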

How the results depend on the processing

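The 10 genes called in every alternative that tested them (*lum*, *ogn*, *sparc*, *fbln1*, *mfap2*, *ccn2b*, *fn1* (06526), *thbs4* (20072), *acana* and *ccdc80*) kept their direction and call in those fits, of which there were 14, or 13 for *thbs4* (20072), which the 1 CPM filter removes. Of these, *thbs4* (20072) and *acana* could pass the authors' low-expression filter only through the day on which they were higher. No alternative changed that filter. Of 759 values of single matrix genes under the alternatives, 674 kept both their sign and their side of the threshold. Of the others, 41 lost a call, 8 gained one and 36 changed sign, all of these last in genes not called. Without scaling factors 11 genes were called higher. With the replicate block 8 were called lower and 26 in all, and the 23 calls were retained, as they were with DESeq2. The block also called 6431 of all genes, against 4445 without it, and 5 copy pairs, against 4. It changed no other call of the matrix genes. Leaving out 1 library gave 14 to 23 genes called, 12 to 18 higher and 2 to 5 lower, 2647 to 4681 of all genes and 27 to 32 genes without overlap. It gave 110 to 157 pairs called of those named with a final a and b, against 169 (38.9% of 435). No pair of that kind lay within the matrix genes.

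Sign changes came in genes whose log2 difference was near 0 or whose level was low, and their cause was not tested. Without scaling factors the log2 difference was -0.187 for *vcanb*, -0.0548 for *fbn2*, -0.0881 for *frem3*, -0.0857 for *smoc2* and -0.159 for *mfap5*. With the replicate block it was -0.212 for *vcanb*, 0.0486 for *mfap1*, -0.0961 for *fbn2* and -0.539 for *smoc2*, and DESeq2 gave -0.0231 for *smoc2*. Leaving out 1 library gave -0.193 to 0.244 for *vcanb*, -0.119 to 0.0698 for *thbs1* (10785), -0.158 to 0.0158 for *thbs1* (03775), -0.188 to 0.201 for *mfap1*, -0.347 to 0.0175 for *mfap4* (38681), -0.454 to 0.145 for *ccn2*, -0.060 to 0.412 for *fbn2*, -0.446 to 0.431 for *matn3*, -0.234 to 0.444 for *frem3*, -0.772 to 0.832 for *smoc2* and -0.0972 to 0.158 for *mfap5*.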
